A study of Mus musculus with 12 samples.

Results

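The genes described here sense oxygen or answer to its lack: the hypoxia-inducible factor (HIF) subunits Hif1a, Epas1 and Arnt, the prolyl hydroxylases Egln1 and Egln3, and the HIF targets Bnip3, Ankrd37, Adm, Car9 and Ddit4. They were chosen by symbol, with earlier results of these data known, and all 10 had a value among the 24570 named genes of the series. Whole retinas of male C57BL/6J mice (which the labels also call outbred) were measured on 1 array per animal, in 6 animals made diabetic with streptozotocin and in 6 normoglycaemic controls. Streptozotocin, which kills pancreatic beta cells, was given once into the peritoneum at 160 mg/kg to mice aged 8 weeks and weighing 24 to 26 g, and hyperglycaemia above 15 mM was required at day 7. No vehicle injection is named for the controls. Both groups carried no engineered allele, lived under 12 h of light and 12 h of dark with free access to chow, and were killed at 6 weeks. The sample descriptions count these weeks from the induction of diabetes, while the series text uses 6 weeks as the animals' age and calls the controls age-matched. An age of 6 weeks cannot hold for animals induced at 8 weeks of age. The series addresses which genes are regulated early in diabetic retinopathy.

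In cells with enough oxygen, the prolyl hydroxylases mark the HIF alpha subunits, the von Hippel-Lindau ubiquitin ligase binds the mark, and the proteasome destroys the subunit. When oxygen falls, the alpha subunit escapes, pairs with Arnt and switches on genes for red cell production, vessel growth, anaerobic metabolism and survival. Because the switch acts on protein stability, the messenger RNA of an alpha subunit can stay level while the pathway is on, and the targets are the usual transcript readout. The retina consumes oxygen at a high rate, and lack of oxygen is a long-studied part of diabetic retinopathy.

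HIF dimers read a short core, ACGTG or GCGTG, and all 9 members with an entry in the RefSeq promoter table (build GRCm38.p6) had at least 1 such core on either strand in the 250 bases before the listed start. Of all 32851 windows of that length, 38.6% had one, counted over all entries whether or not the gene was measured here. Among the measured genes with an entry, 9591 had no such core, 8028 had 1 to 3 matches and 716 had 4 or more. The members are known genes of the pathway, so these shares are a description without a test. The whole windows of Bnip3 and Ddit4 are shown, because these targets had the largest differences between the groups described below. For Egln1, Ankrd37 and Car9, the 30 bases around the core nearest to the start are shown. Capitals mark the cores, on the strand of the gene, so that CACGT and CACGC are cores on the other strand. The CACGTG of Bnip3 is 1 site that counts as a match on each strand, and it also has the letters of an E-box, which other factors bind.
Bnip3, chr7:138909507-138909756, minus strand: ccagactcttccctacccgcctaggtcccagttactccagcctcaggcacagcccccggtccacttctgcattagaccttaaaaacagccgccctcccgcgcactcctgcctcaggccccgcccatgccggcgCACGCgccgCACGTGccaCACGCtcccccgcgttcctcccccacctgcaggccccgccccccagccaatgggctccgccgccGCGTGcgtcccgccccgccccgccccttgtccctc
Ddit4, chr10:59951771-59952020, minus strand: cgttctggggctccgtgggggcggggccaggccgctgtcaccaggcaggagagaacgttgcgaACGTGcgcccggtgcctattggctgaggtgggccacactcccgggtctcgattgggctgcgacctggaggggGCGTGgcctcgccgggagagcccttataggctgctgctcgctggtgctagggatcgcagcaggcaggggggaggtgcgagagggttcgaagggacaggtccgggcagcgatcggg
Egln1, chr8:124949305-124949334, minus strand: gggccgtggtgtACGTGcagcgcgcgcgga
Ankrd37, chr8:45999851-45999880, minus strand: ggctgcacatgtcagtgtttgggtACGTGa
Car9, chr4:43506996-43507025, plus strand: ctatttccgatgCACGTacagcccgtccac

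The ACGTG core was present in 7 of the 9 members (77.8%) against 16.6% of all windows, and the GCGTG core in 6 of 9 (66.7%) against 28.2%. Bnip3 had 5 matches and Ankrd37 had 4, whereas 2.58% of all windows had 4 or more. The GCGTG matches of Ankrd37 overlap, starting at -155 on the other strand and at -152 on the gene strand. Hif1a had 3 matches, all of ACGTG, of which a pair is, as in Bnip3, 1 site read on both strands. Egln1, Adm and Ddit4 had 2 each, and Arnt, Egln3 and Car9 had 1 each. A match is only a run of letters, and no binding was measured in these retinas.

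**Figure D1:**
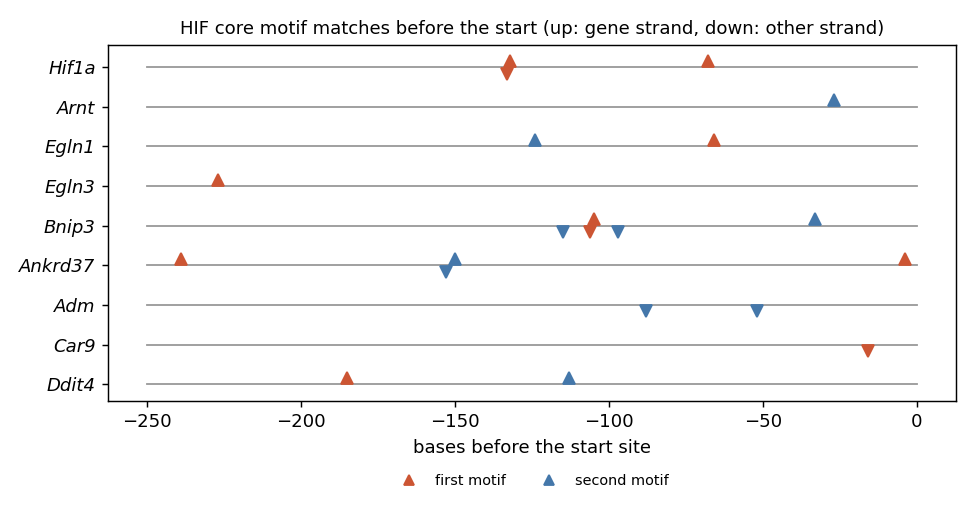
Matches to the HIF core in the 250 bases before the start of 9 members; the horizontal axis gives bases before the start, red triangles mark ACGTG and blue triangles GCGTG, pointing up on the gene's strand and down on the other. Bnip3 and Ankrd37 have the most matches, 5 and 4.

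None of the 10 members passed the limma test of diabetic against control retinas (Benjamini-Hochberg adjusted p below 0.05 over all 24570 genes), while 797 genes (3.24%) did, 1.47% of all genes higher and 1.77% lower in diabetic retinas. At an unadjusted p below 0.05 there were 4 of 10 (40.0%), namely Hif1a, Bnip3 and Adm with higher and Egln3 with lower means in diabetic retinas, against 21.0% of all genes (9.76% higher and 11.3% lower). The count of 4 rested on single arrays: it was 1 without control 2, without control 4, without diabetic 3 or without diabetic 5, and 2 without control 3, control 5, diabetic 2 or diabetic 6. The groups overlapped for all 10 members, where they did not overlap for 2.84% of all genes. The median change of the members was 0.06 on the log2 scale against 0.00 for all genes, with 6 of 10 above 0 where 48.1% of all genes were. In whole retina, fewer cells of a type and less RNA per cell cannot be told apart.

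The 95% intervals were made gene by gene, so they do not bound all 10 changes at once. Taken over the 10 members, the lowest bound of the 95% intervals was -0.21 (0.86-fold) and the highest was 0.56 (1.47-fold). These bounds are on the scale of the deposited RMA values, which compress changes of dim genes. Egln3, Adm and Car9 had means below the array median of 5.73, where a small difference can stand for a larger one; for such genes the absence of a call is weak evidence of constancy.

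**Figure D2:**
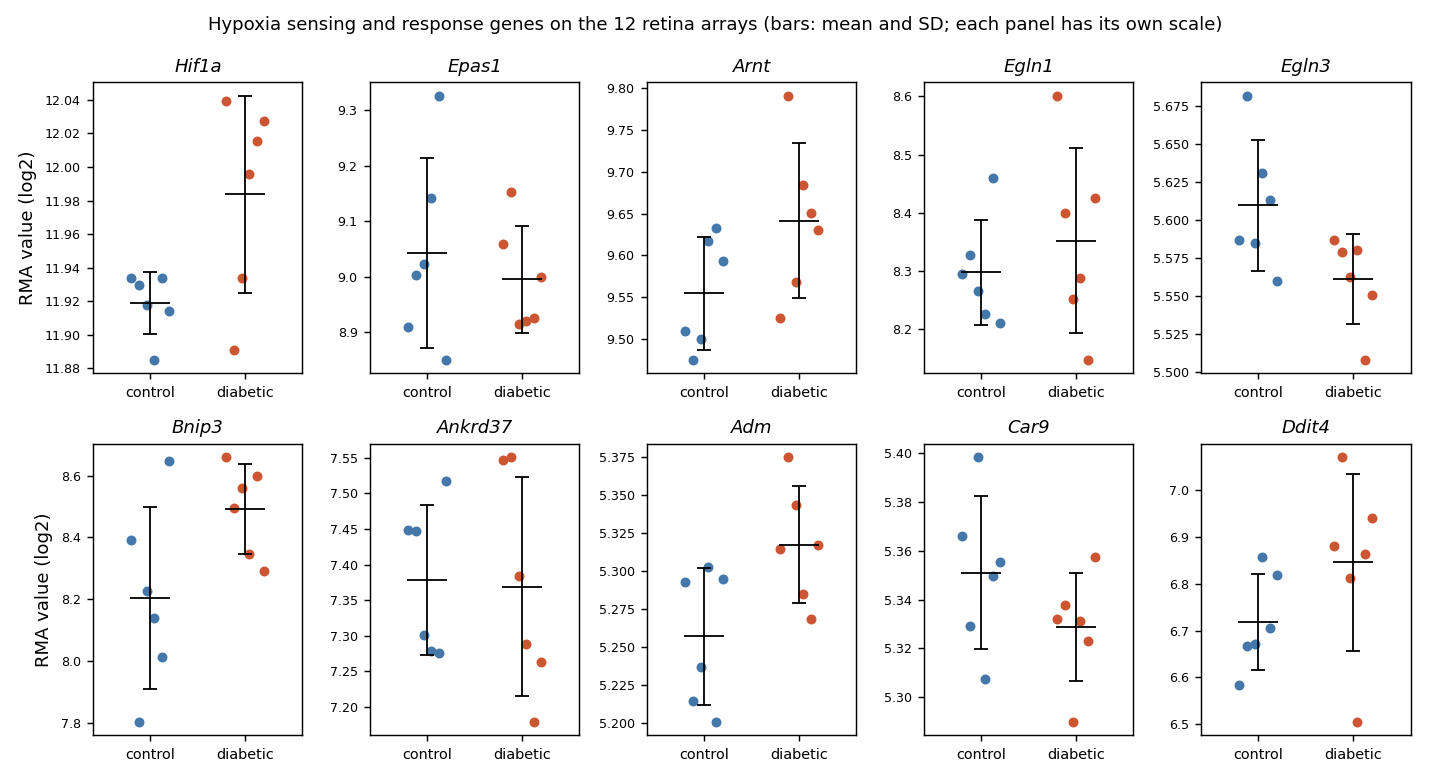
RMA values (log2, vertical axis, a separate scale in each panel) of the 10 members on the 6 control arrays (blue) and the 6 diabetic arrays (red), with the mean and SD of each group as bars. The groups overlap in every panel; the widest control spread is that of Bnip3, from 7.80 to 8.65.

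Hif1a encodes the alpha subunit found in most cell types. Its values ran from 11.88 to 11.93 in controls (median 11.92) and from 11.89 to 12.04 in diabetic retinas (median 12.01). In diabetic retinas, 4 arrays lay above the highest control, while diabetic 2 (11.89) and diabetic 3 (11.93) lay within the control range. The difference was 0.06 ± 0.02 (SE, n = 6 per group; 1.05-fold; 95% interval 0.01 to 0.12; limma adjusted p = 0.165). The pooled SD within groups was 0.044, and 8.60% of the 500 genes nearest in level had a smaller one. It joins unlike groups, with an SD of 0.02 in controls and 0.06 in diabetic retinas, a contrast that was not tested. Without diabetic 2 the difference was 0.08 and passed (adjusted p = 0.0480), the one call of a member in the 12 runs that left out an array. In the other runs the adjusted p was at most 0.270. The noncoding RNA Gm15283 overlaps Hif1a by 12831 bases and differed by -0.02 ± 0.10 (adjusted p = 0.937).

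Epas1 encodes HIF-2 alpha, the subunit prominent in endothelium and in cells that make erythropoietin. Control values ran from 8.85 to 9.33 (median 9.01) and diabetic values from 8.91 to 9.15 (median 8.96), so that all diabetic arrays lay inside the control range. The difference was -0.05 ± 0.07 (95% interval -0.21 to 0.12; adjusted p = 0.764). Its sign rested on control 5, the highest of the 12 arrays: without it the difference was 0.009.

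Arnt encodes the constant partner of both alpha subunits. Control values ran from 9.47 to 9.63 (median 9.55) and diabetic values from 9.53 to 9.79 (median 9.64), with 3 diabetic arrays above the highest control. The difference was 0.09 ± 0.04 (1.06-fold; 95% interval -0.01 to 0.18; adjusted p = 0.287).

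Egln1 encodes PHD2, the hydroxylase that sets the level of Hif1a protein in most tissues. Diabetic 1 (8.60) was the one diabetic array above the highest control (8.46), and diabetic 5 (8.15) lay below the lowest control (8.21), so the diabetic arrays spread to both sides of the controls. The medians were 8.28 and 8.34. The difference was 0.05 ± 0.07 (95% interval -0.10 to 0.21; adjusted p = 0.703).

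Egln3 encodes PHD3, a hydroxylase that HIF itself induces and that therefore serves as a hypoxia marker. Control values ran from 5.56 to 5.68 (median 5.60) and diabetic values from 5.51 to 5.59 (median 5.57). All 6 diabetic arrays lay below the control mean and 2 below the lowest control. The difference was -0.05 ± 0.02 (95% interval -0.096 to -0.001; adjusted p = 0.228).

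Bnip3 had the widest difference and the widest spread of the members. It encodes a protein of the outer mitochondrial membrane that marks mitochondria for autophagy. Control values ran from 7.80 (control 2) to 8.65 (control 6), with a median of 8.18, and diabetic values from 8.29 to 8.66, with a median of 8.53. All 6 diabetic arrays lay above the control mean, but only diabetic 1 exceeded control 6. The difference was 0.29 ± 0.12 (1.22-fold; 95% interval 1.01-fold to 1.47-fold; adjusted p = 0.209). It was larger than that of 97.4% of the 500 genes nearest in level.

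The spread of Bnip3 was as unusual as its difference. Its SD within groups was 0.232, where the 500 genes nearest in level had a median of 0.107, and 97.4% of them had a smaller SD. The controls (SD 0.29) varied more than the diabetic retinas (SD 0.15) in these arrays, a contrast of SDs that was not tested. Leaving out control 6, the high control, gave 0.38 (adjusted p = 0.0910), and leaving out control 2, the low one, gave 0.21 (adjusted p = 0.354). A pseudogene, Gm18258, overlaps the span of Bnip3 by 988 bases and has no row of its own in the table used here.

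**Figure D3:**
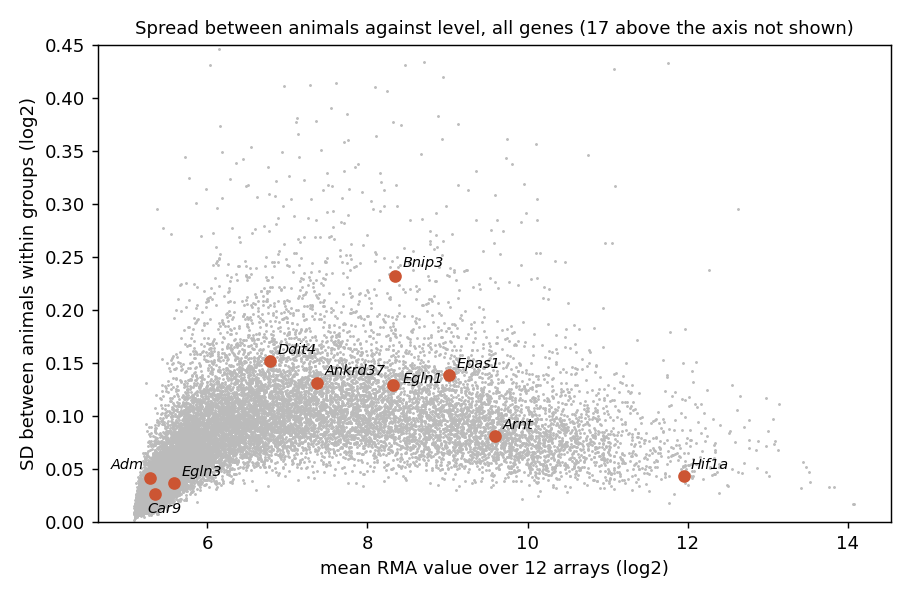
SD between animals within groups (log2, vertical axis) against the mean RMA value over 12 arrays (log2, horizontal axis) for all genes (grey) and the 10 members (red). Bnip3, with an SD of 0.232, lies above most genes of its level, and Hif1a, with 0.044, below most of its own.

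Ankrd37 encodes an ankyrin repeat protein and is a direct HIF target. Control values ran from 7.28 to 7.52 (median 7.37) and diabetic values from 7.18 to 7.55 (median 7.34). Diabetic 1 and diabetic 2 (both 7.55) lay above all controls and diabetic 5 (7.18) and diabetic 6 (7.26) below all of them. The difference was -0.01 ± 0.07 (95% interval -0.16 to 0.14; adjusted p = 0.957), and its sign turned in 6 of the 12 runs that left out an array. Bnip3 and Ankrd37, the members with the most HIF cores before their start, thus had the widest and the narrowest difference.

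Ddit4 encodes Redd1, which restrains the growth kinase complex mTORC1 under low oxygen, and which glucocorticoids, DNA damage and stress of the endoplasmic reticulum also induce. Control values ran from 6.58 to 6.86 (median 6.69). Diabetic values ran from 6.51 (diabetic 4) to 7.07 (diabetic 2), with a median of 6.87. Here 4 diabetic arrays exceeded the highest control, while diabetic 4 was the lowest of all 12. The difference was 0.13 ± 0.08 (1.09-fold; 95% interval 0.97-fold to 1.24-fold; adjusted p = 0.401). Without diabetic 4 it was 0.20 (adjusted p = 0.106), and without diabetic 2, the highest array, 0.08 (adjusted p = 0.579).

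Adm encodes adrenomedullin, a peptide that widens vessels and tightens the endothelial barrier. Its values were close to the bottom of the array's range, from 5.20 to 5.30 in controls (median 5.27) and from 5.27 to 5.38 in diabetic retinas (median 5.32). All 6 diabetic arrays lay above the control mean and 4 above the highest control. The difference was 0.06 ± 0.02 (1.04-fold; 95% interval 0.01 to 0.11; adjusted p = 0.180). It was larger than that of 97.0% of the 500 genes nearest in level, and the SD of Adm within groups (0.042) was larger than that of 89.0% of them, whose median SD was 0.025. Apart from Adm and Bnip3, the share of genes of like level with a smaller difference in either direction ran from 6.00% (Ankrd37) to 72.4% (Ddit4). It was 60.6% for Hif1a and 67.2% for Egln3. The long noncoding RNA Gm28863 overlaps Adm by 2164 bases and has no row of its own in the table used here.

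Car9 encodes a carbonic anhydrase of the cell surface that removes acid from oxygen-poor cells, and its promoter is among the most closely tied to HIF-1. Its values lay near the bottom of the range, from 5.31 to 5.40 in controls (median 5.35) and from 5.29 to 5.36 in diabetic retinas (median 5.33). The difference was -0.02 ± 0.02 (95% interval -0.06 to 0.01; adjusted p = 0.489). Arhgef39 overlaps Car9 and differed by -0.05 ± 0.02 (adjusted p = 0.172). The sources used here do not say which bases the probes of either gene cover.

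**Figure D4:**
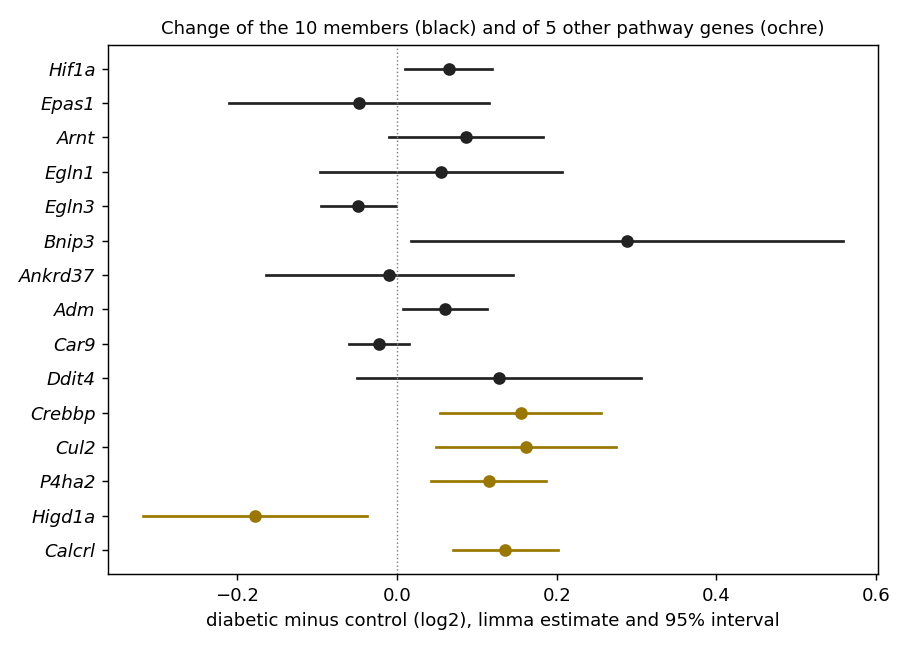
Difference of diabetic minus control (log2, horizontal axis) with its 95% interval from limma for the 10 members (black) and 5 other genes of the pathway (ochre). Bnip3 has the widest interval among the members, 0.02 to 0.56, and of the 15 genes only Calcrl passed the test over all genes.

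The rest of the oxygen-sensing apparatus was described with 14 further genes, all measured. None passed over all genes, and 3 (21.4%) had an unadjusted p below 0.05, close to the 21.0% of all genes. The differences of 12 of the 14 lay above 0 (median 0.06), where 48.1% of all genes lay above 0 (median 0.00). No test of the list was run. Crebbp, a coactivator that HIF recruits to its targets, ran from 10.73 to 11.02 in controls and from 10.90 to 11.09 in diabetic retinas, a difference of 0.15 ± 0.05 (adjusted p = 0.0866). Without control 5, its highest control, the difference was 0.19 and passed (adjusted p = 0.0272). Cul2, the scaffold of the von Hippel-Lindau ligase, ran from 8.22 to 8.53 in controls and from 8.46 to 8.63 in diabetic retinas, a difference of 0.16 ± 0.05 (adjusted p = 0.104). Vhl itself differed by 0.11 ± 0.07 (adjusted p = 0.415). Hif1an, the asparagine hydroxylase that blocks coactivator binding, differed by -0.08 ± 0.05 (adjusted p = 0.406).

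Among 31 other HIF targets outside the VEGF and glycolysis genes, none passed over all genes. An unadjusted p below 0.05 was reached by 4 (12.9%, against 21.0% of all genes), 2 in each direction. Of the differences, 14 lay above and 17 below 0 (median -0.01), where 48.1% of all genes lay above 0. P4ha2, a collagen prolyl hydroxylase, differed by 0.11 ± 0.03 (adjusted p = 0.0798), with 4 diabetic arrays above the highest control (5.82). Higd1a, a mitochondrial protein of the inner membrane, ran from 6.97 to 7.32 in controls and from 6.76 to 7.06 in diabetic retinas, a difference of -0.18 ± 0.06 (adjusted p = 0.143). Bnip3l, the close relative of Bnip3 in mitochondrial autophagy, differed by -0.06 ± 0.05 (adjusted p = 0.606). Of the 23 targets with a promoter entry, 20 (87.0%) had a HIF core before the start, where 38.6% of all windows had one. The share was lower for the other sensing genes with an entry (5 of 11, 45.5%) and the partners (4 of 6, 66.7%). These shares were not tested.

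**Figure D5:**
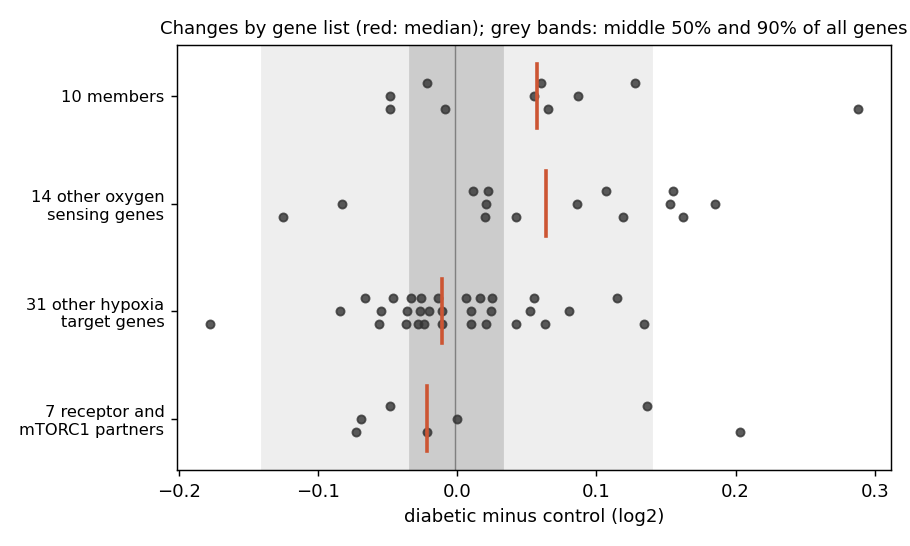
Differences of diabetic minus control (log2, horizontal axis) for the members and 3 further gene lists, 1 point a gene, with each list's median in red; grey bands hold the middle 50% and 90% of all genes (-0.03 to 0.03 and -0.14 to 0.14). Of the 10 members, Bnip3 alone lies outside the wider band.

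The one gene of the lists that passed, Calcrl, was on the list of partners. The lists were chosen with earlier results of these data known, so the count of partners past the test is a description of the list without a test. Calcrl encodes the receptor that, paired with Ramp2 or Ramp3, binds adrenomedullin on endothelium. It ran from 5.62 to 5.78 in controls (median 5.68) and from 5.75 to 5.86 in diabetic retinas (median 5.85), and 5 of the 6 diabetic arrays lay above the highest control. Calcrl rose 1.10-fold (0.14 ± 0.03, SE, n = 6 per group; limma adjusted p = 0.0357), 1 of 7 partner genes (where 3.24% of all genes passed), at a level next to the array median. With 1 array removed, the call held in 3 of 12 runs, those without control 1, control 3 or diabetic 5 (adjusted p from 0.0279 to 0.0728 over the 12), with differences from 0.12 to 0.15. It was also lost with markers of lens and pigment epithelium as covariates (0.13; adjusted p = 0.0678).

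The other receptor parts on the list did not pass. Ramp1 differed by -0.02 ± 0.02 (adjusted p = 0.456), Ramp2 by 0.00 ± 0.03 (adjusted p = 0.995) and Ramp3 by -0.07 ± 0.03 (adjusted p = 0.274). The mean of 6 endothelial markers ran from 5.78 to 5.82 in controls and from 5.75 to 5.80 in diabetic retinas; their part in the value of Calcrl was not tested. Of them, 3 of 6 had means below the array median, and none passed the gene test. Among the partners of Redd1, Tsc1, a subunit of the complex that turns mTORC1 off, differed by 0.20 ± 0.06 (adjusted p = 0.0821). It is named here after its values were seen.

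Variation from animal to animal was compared between members. Over the deviations of the 12 arrays from their group means, the 45 pairs of members had a median Pearson r of -0.04, with 21 pairs above and 24 below 0, and none passed after adjustment over the 45 pairs (permutation test within groups; 3 pairs had an unadjusted p below 0.05). The pair of smallest p was Hif1a and Adm (r = -0.62, permutation p = 0.0210; rho = -0.57, permutation p = 0.0436; adjusted p = 0.427 and 0.729), with r = -0.39 without the 2 arrays farthest from the median of Hif1a. The lowest r was that of Egln3 and Bnip3, both known HIF targets (r = -0.70, permutation p = 0.0285; Spearman's rho = -0.52, permutation p = 0.116; adjusted p = 0.427 and 0.729). It was r = -0.91 in controls and -0.09 in diabetic retinas, and -0.56 without the 2 arrays farthest from the median of Egln3. The highest r was that of Epas1 and Egln1 (r = 0.59, permutation p = 0.0214; rho = 0.63, permutation p = 0.0278; adjusted p = 0.427 and 0.729), with r = 0.71 in controls, 0.67 in diabetic retinas and 0.46 without the 2 arrays farthest from the median of Epas1.

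For Hif1a and Adm, the members with the smallest p, the genes of most similar pattern among the other 24569 were sought by the Pearson r of the deviations over the 12 arrays. Those of Hif1a were Metrnl (r = 0.94), Slc30a9 (0.93) and Rars2 (0.93), and those of Adm were Ddx56 (0.90), Narf (0.89) and Prex1 (0.89). Within the groups, r of the genes like Hif1a was 0.46, 0.62 and 0.51 in controls and 0.98, 0.97 and 0.97 in diabetic retinas. That of the genes like Adm was 0.98, 0.91 and 0.91 in controls and 0.81, 0.87 and 0.88 in diabetic retinas. Being the highest of so many, these values carry no test. Between the groups, none of the 6 genes passed (lowest adjusted p = 0.0578, for Rars2).

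The 12 arrays were those of retina: rod markers averaged 13.33 to 13.41 in controls and 13.36 to 13.39 in diabetic retinas, and Mueller glia markers 10.88 to 11.16 and 10.81 to 11.17. The means of the pericyte (6.75 to 6.87 and 6.76 to 6.89), microglia (5.61 to 5.70 and 5.58 to 5.70) and red blood cell markers (5.27 to 5.35 and 5.27 to 5.34) covered like ranges. The mean of the cone markers ran from 10.72 to 10.86 in controls and from 10.57 to 10.75 in diabetic retinas. Of these markers, Arr3 differed by -0.30 ± 0.07 (SE) and passed the limma test (adjusted p = 0.0348). Opn1sw differed by 0.02 ± 0.04 (SE, adjusted p = 0.874) and Gnat2 by -0.09 ± 0.05 (SE, adjusted p = 0.317). Bipolar cell markers ran from 9.65 to 9.88 in controls and from 9.58 to 9.72 in diabetic retinas (means 9.78 ± 0.08 and 9.66 ± 0.07, SD, n = 6), and none passed. Ganglion cell markers (7.64 to 7.99 and 7.66 to 7.93) and amacrine cell markers (8.07 to 8.37 and 8.04 to 8.25) overlapped more widely. The mean of the 3 astrocyte markers ran from 5.64 to 5.72 in controls and from 5.71 to 5.77 in diabetic retinas. Gfap differed by 0.19 ± 0.03 (SE) and passed (limma adjusted p = 0.0126). Aldh1l1 differed by 0.07 ± 0.03 (SE, adjusted p = 0.126), and Pax2 went the other way, by -0.06 ± 0.02 (SE, adjusted p = 0.194). Lens markers ran from 5.91 to 6.72 in controls and from 5.79 to 7.55 in diabetic retinas, and pigment epithelium markers from 6.34 to 6.86 and from 6.33 to 7.39, both highest in diabetic 6. With both as covariates, the difference of Ddit4 was 0.09, that of Adm 0.05, that of Hif1a 0.07 and that of Bnip3 0.34, and none passed the test. The animal numbers in the labels do not overlap between the groups, so any cohort behind these numbers and diabetes cannot be told apart.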

How the data were processed

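RNA of 12 retinas, 1 array per animal, was measured. The deposited log2 values were made with RMA by the authors, per the submitters' processing notes; its version, the array design and the genome build are not given in the sources used here. The sorted values of all arrays are identical (median 5.73, range 5.07 to 14.10), so a shift shared by most genes is invisible here. Of 24973 rows (Entrez gene numbers), 24015 were listed in the platform annotation and 559 only in RefSeq GRCm38.p6. The RefSeq symbol was used where there was one, and otherwise that of the platform annotation. For 4 symbols on several rows the row of highest mean was kept, which left 24570 genes.

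Groups were compared with limma 3.58.1 (R 4.3.3), with two-sided p-values adjusted by Benjamini-Hochberg across the 24570 genes; the procedure was tested on simulated data. Levels are means with SD. The named genes were all members, the genes of 3 further lists past the test or otherwise the 2 of smallest p, and the genes most like 2 members. Members and lists were chosen with earlier results of these data known. Other genes are named with their values for context, chosen after those were seen. Alternatives covered the variance model, filters, array weights, covariates, cyclic loess, thresholds, label numbers, an exact permutation test and each array left out. The number of arrays limits the precision.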

Additional observations from a re-analysis of the deposited data

Results flagged for a closer look

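Among 56 groups of 6 arrays (15 named genes and 13 marker lists in each group), 3 (5.36%) held a stray array, whose gap to its nearest neighbour exceeded Dixon's critical share of the group's range, where chance gives about 1 in 20. Calcrl in diabetic retinas had a ratio of 0.632, with diabetic 5 (5.75) below the others (5.82 and above). The pericyte markers in diabetic retinas had a ratio of 0.723, with diabetic 6 (6.89) above the others (up to 6.79). The astrocyte markers in control retinas had a ratio of 0.722, with control 2 (5.72) above the others (up to 5.67). None of the 10 members was among them.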

How the results depend on the processing

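The count of 0 members past the limma test was 0 to 1 with each array left out, the 1 being Hif1a without diabetic 2, and 0 under the other settings run. For the exact permutation test and for the 2 diabetic animals of higher label number alone, no gene at all passed, so their count of 0 says nothing about the members; each had 3 members at an unadjusted p below 0.05. That unadjusted count, 4 at first, was 2 with genes above the 25th percentile, 1 with genes above the median, 1 with array weights, 2 with the replicate block, 2 with cyclic loess, 1 with the 4 diabetic animals of lower label number alone, and 1 to 5 with an array left out; the 2 filters themselves removed 2 and 3 members, and the cause was otherwise not tested. Over all genes, 797 became 506 with the replicate block (same-numbered animals had correlations of deviations from -0.16 to 0.17, and 1 of 6 correlated best with its own number, so the numbers do not pair them), 1967 at a threshold of 0.1, 291 with the 4 diabetic animals of lower label number alone, 0 with the 2 diabetic animals of higher label number alone (5165 at an unadjusted p below 0.05 became 3423), 0 by the exact permutation test (5089 at an unadjusted p below 0.05; its smallest p is 0.00216), and 325 to 835 with an array left out. Above the median level, where 12285 genes were tested, 3130 had an unadjusted p below 0.05. Other sensing genes past the test were 1 at the threshold of 0.1 and 0 to 1 with an array left out, and other targets 1 at that threshold. The partners' count of 1 was 2 at that threshold, 0 above the median level, 0 with lens and pigment covariates, 0 with either set of diabetic label numbers alone, 0 by the permutation test (which, like the fit on the 2 animals of higher number, called no gene at all), and 0 to 1 with an array left out; the replicate block kept the call of Calcrl (adjusted p = 0.0416). The sign turned for Epas1 (-0.09 to 0.009 with an array left out), for Egln1 with the 2 animals of higher number alone (-0.011), and for Ankrd37 (0.064 with the 4 of lower number alone, -0.05 to 0.028 with an array left out). The other 7 members kept their sign in all settings run.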

Other observations

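Differences were also set against the number of HIF cores before the start over all measured genes with a promoter entry. The 716 measured genes with 4 or more matches had a median difference of 0.001 on the log2 scale and 51.3% of them lay above 0. The 8028 genes with 1 to 3 matches had a median of -0.001 (48.8% above 0), and the 9591 genes with no match a median of -0.002 (47.2% above 0). The levels of these sets differed, with medians of 6.82, 6.35 and 5.50, and the share above 0 was 48.1% over all genes. These are descriptions without a test.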
